A study of Homo sapiens with 8 samples.

Results

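Mitochondrial ribosomal protein genes were examined in a list of Cut&Run peaks obtained with an anti-PML::RARA antibody. They were the 34 peaks whose gene symbol, as given by the authors, begins with MRPL or MRPS followed by a digit, of 15412 peaks in all and 7169 that carry a gene symbol. Each of the 34 peaks carried a different symbol, 33 of protein-coding genes and 1 of the pseudogene MRPS31P5. In Cut&Run, an antibody brings a nuclease to the protein it binds in isolated nuclei, and the released DNA is sequenced. The human cell line used, U937-PR9, derives from monocyte-like U937 cells and expresses PML::RARA, the fusion that drives acute promyelocytic leukemia, from an introduced gene once zinc is added. Induced cells received 100 µM ZnSO4 and uninduced cells received sterile water, each for 5 h, and nuclei of both were incubated with the anti-PML::RARA or the anti-RARA antibody in 2 replicates, giving 8 libraries. The list analysed here came from induced cells and the antibody to the fusion. Peaks of uninduced cells and of the anti-RARA antibody were not analysed here, and all values come from 1 cell line. Zinc and the fusion were present or absent together in all 8 libraries. An effect of zinc itself and one of the fusion therefore cannot be told apart.

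The mitochondrial ribosome translates the few proteins that mitochondrial DNA encodes, which are subunits of the oxidative phosphorylation complexes. Its ribosomal RNAs come from mitochondrial DNA, but all of its proteins are encoded in the nucleus, made in the cytosol and imported. MRPL genes encode proteins named for the large subunit, which forms peptide bonds, and MRPS genes those named for the small subunit, which decodes the messenger RNA. The names are misleading for some proteins. MRPS30 sits in the large subunit in ribosome structures, and MRPS36 has since been assigned to a dehydrogenase complex. Promoters of such genes are typically CpG-rich, and ETS factors such as GABPA, nuclear respiratory factor 1 (NRF1) and YY1 are known to act at many of them.

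The values of a peak are its height, the score that was read from its values as the largest signal within the peak, and its width in bases (bp). The list gives 1 value per peak and none per replicate. No spread between replicates can therefore be given, no difference below was tested, and each is a description of this list. The sequencing depth is unknown. Positions are on hg19. The heights of all peaks ran from 13 to 87, and 1115 peaks stood at 16 with only 20 below it, so that 16 is close to the floor of the list.

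The apex of a peak is the middle of its interval of largest signal. Within 200 bp of it, 22 of 34 peaks (64.7%) held a short match to an ETS-type, NRF1-type or YY1 motif. Among the other peaks with a gene symbol the share was 32.6%. The matches shown here are chosen examples, not a ranking, and some recur below. Sequences run 5′ to 3′ on the strand of the gene, and capitals mark exact matches in either orientation. Matches to the ETS-type motif CCGGAAG lay within 100 bp of the apex or at the start site in peaks of MRPL20 (chr1:1342678-1342727, minus strand), MRPL38 (chr17:73901157-73901183, minus), MRPL16 (chr11:59578241-59578267, minus), MRPS23 (chr17:55927403-55927429, minus) and MRPL33 (chr2:27994568-27994594, plus).
MRPL20: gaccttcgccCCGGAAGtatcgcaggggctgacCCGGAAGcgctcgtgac
MRPL38: ccaacgggcaCTTCCGGagccgggcgt
MRPL16: gtgaacacaaCTTCCGGccccactgag
MRPS23: ggagcagccgCTTCCGGttccggtagc
MRPL33: gggccgtgccCCGGAAGcagttgttgt

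The NRF1-type motif GCATGCGC occurred in MRPL17 (chr11:6704597-6704662, minus strand), in 3 overlapping or neighbouring matches, and in MRPL24 (chr1:156711114-156711141, minus). In both, the matches lay upstream of the gene's nearest own start site. At MRPL24 the match still lay inside the gene record, which begins farther upstream.
MRPL17: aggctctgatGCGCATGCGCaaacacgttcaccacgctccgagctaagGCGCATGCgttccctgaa
MRPL24: tccacgcagaGCATGCGCgggaatgtgc

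The YY1 core AAGATGG lay just downstream of the start site, on the strand of the gene, in MRPS30 (chr5:44809052-44809078, plus strand), MRPS24 (chr7:43909081-43909107, minus), MRPL50 (chr9:104160861-104160887, minus) and MRPS27 (chr5:71616035-71616061, minus). In these 4 genes the ATG inside the match is an annotated start codon. MRPL42 (chr12:93861288-93861314, plus) held the core upstream of its nearest own start site but downstream of the start of its canonical transcript. MRPL47 (chr3:179322449-179322527, minus) held both a YY1 core and an ETS-type match between its start site and that of NDUFB5, a gene of respiratory complex I on the other strand.
MRPS30: atcgcgggcaAAGATGGcggcggccag
MRPS24: cgcttggcccAAGATGGcggcctccgt
MRPL50: gatctcatcgAAGATGGcggcgcgatc
MRPS27: ggtacgctccAAGATGGctgcctccat
MRPL42: ggattgaaacAAGATGGcgggttcgtg
MRPL47: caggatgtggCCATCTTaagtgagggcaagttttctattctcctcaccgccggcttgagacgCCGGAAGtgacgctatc

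The highest peak lay at a promoter without a match to any of these 3 motifs. At MRPL51, a large subunit protein without a bacterial counterpart, the 61 bases around the apex (chr12:6603130-6603190, minus strand) lay between 183 and 123 bp upstream of the start site.
MRPL51: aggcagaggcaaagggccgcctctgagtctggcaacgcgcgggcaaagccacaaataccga

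The 34 peaks were narrower than the other labelled peaks and slightly lower by the median. The other labelled peaks include those, described below, that cover a mitochondrial ribosomal protein gene's start site under a symbol outside this family. The 34 heights ran from 16 to 42 with a median of 24 (quartiles 19 and 31), and those of the 7135 other labelled peaks had a median of 26 (quartiles 20 and 35). The 34 widths had a median of 924 bp (quartiles 693.5 and 1087.5) and a range of 141 to 1749 bp, against a median of 1109 bp (quartiles 771 and 1542) elsewhere. Placed among the other labelled peaks, with ties counted at their middle, the median member stood at the 41.7th percentile of height and the 36.0th percentile of width. A lower height than the other labelled peaks' median was found for 19 of 34 and a smaller width for 26 of 34. The lower height was not seen once width was taken into account. Among peaks of like width (10 classes of near-equal size), the median height percentile was 51.6, on the other side of the middle. Among peaks of like height, the median width percentile was 26.9, still below the middle.

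Few of the 34 peaks were among the tall or the wide ones. Only 4 of 34 (11.8%) reached a height of 35 or more, the upper quartile of the other labelled peaks, which 25.5% of those reached. A height of 20 or less was found for 12 (35.3%) and for 25.9% of the others. A width of 1542 bp or more was found for 2 (5.88%) and for 25% of the others. A width of 771 bp or less was found for 14 (41.2%) and for 25.1% of the others. The total signal, which sums over the width, had a median of 6967 against 10096, and the mean signal per base one of 8.31 against 9.09. Across the 34 peaks, height and width rose together with a Spearman's rho of 0.53, against 0.45 across the other labelled peaks. All these peaks share the same pair of libraries.

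**Figure D1:**
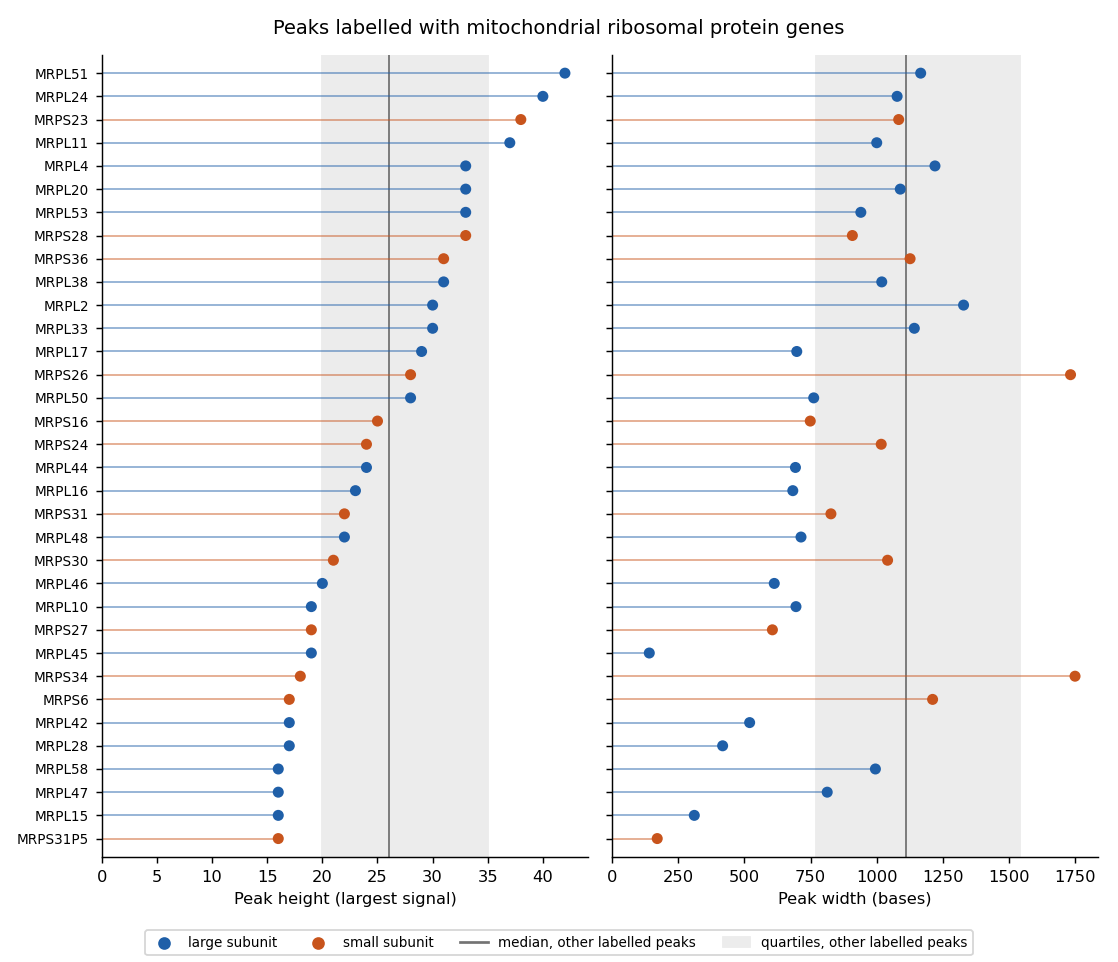
Height (left, largest signal) and width (right, bases) of the 34 peaks labelled with mitochondrial ribosomal protein genes, 1 point per peak, ordered by height and coloured by the subunit in the gene's name. The line and the grey band are the median and quartiles of the 7135 other labelled peaks. MRPL51, MRPL24, MRPS23 and MRPL11 lie above the band in height, and MRPS34 and MRPS26 lie above it in width.

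**Figure D2:**
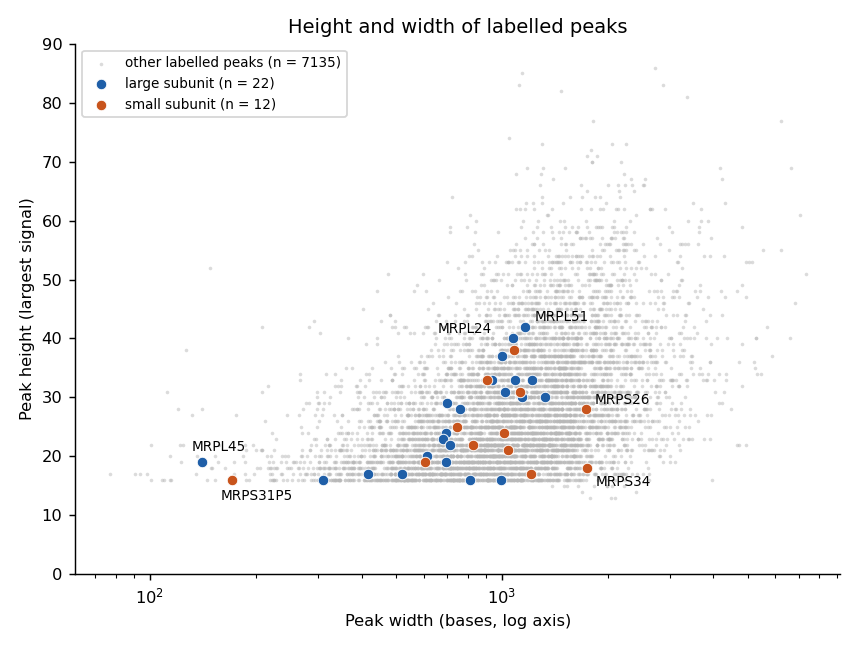
Height against width (log axis) of all labelled peaks, with large subunit genes in blue, small subunit genes in orange and the other labelled peaks in grey. The 34 peaks lie inside the grey cloud, up to 42 in height and 1749 bp in width, while the cloud reaches heights of 86 and widths of 7313 bp.

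Among large subunit genes, 22 peaks had a median height of 26 and a median width of 787.5 bp, and none reached 1542 bp. MRPL51 had the highest peak of all, with a height of 42 (chr12:6602326-6603491, 1166 bp, above 87.7% of the other labelled peaks by height). MRPL24, a protein with a bacterial counterpart, followed with a height of 40 over 1077 bp (chr1:156710295-156711371). MRPL11, which lies at the base of the stalk that recruits translation factors, had a height of 37 over 1000 bp (chr11:66205692-66206691). These were the 3 large subunit peaks above the upper quartile of the other labelled peaks. MRPL4, MRPL20 and MRPL53 each stood at 33. MRPL38 had a height of 31, and MRPL2, a protein of the peptidyl transferase region, and MRPL33 had heights of 30. MRPL17 stood at 29 and MRPL50 at 28.

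The remaining large subunit peaks lay below the median of the other labelled peaks. MRPL44, whose protein is related to RNase III, had a height of 24, MRPL16 one of 23, MRPL48 one of 22 and MRPL46 one of 20. MRPL10, another stalk protein, and MRPL45, which lies near the exit of the peptide tunnel, stood at 19. MRPL42 and MRPL28 stood at 17. MRPL58, a peptidyl-tRNA hydrolase that rescues stalled ribosomes, MRPL47 and MRPL15 stood at 16, near the floor. Low height went with small width in some of these but not in all, since MRPL58 was 995 bp wide and MRPL15 311 bp.

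Among small subunit genes, 12 peaks had a median height of 23 and a median width of 1029 bp, and without the pseudogene 11 peaks had medians of 24 and 1041 bp. The medians were thus higher for the large subunit in height and for the small subunit in width, and neither difference was tested. Heights ran from 16 to 42 in the large and from 16 to 38 in the small subunit, and widths from 141 to 1328 bp and from 171 to 1749 bp, or from 606 bp without the pseudogene. MRPS23 had the highest of the 12, with a height of 38 over 1083 bp (chr17:55926994-55928076), and it was the only one at or above 35. MRPS28 followed at 33, MRPS36 at 31 and MRPS26 at 28. MRPS16, which has a bacterial counterpart, stood at 25, MRPS24 at 24, MRPS31 at 22, MRPS30 at 21 and MRPS27 at 19. MRPS34, MRPS6 and MRPS31P5 had the lowest heights, of 18, 17 and 16.

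Both of the widest peaks belonged to small subunit genes. The MRPS34 peak (chr16:1821911-1823659) was 1749 bp wide, more than 82.5% of the other labelled peaks, with a height of only 18. The MRPS26 peak (chr20:3025823-3027554) was 1732 bp wide with a height of 28. MRPL2 (1328 bp), MRPL4 (1220 bp) and MRPS6 (1211 bp) came next. At the other end, the MRPL45 peak (chr17:36452874-36453014) was 141 bp wide, the MRPS31P5 peak (chr13:52768492-52768662) 171 bp and the MRPL15 peak (chr8:55047614-55047924) 311 bp.

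The 141 bases of the MRPL45 peak lie in a duplicated region. The peak with 500 bp on either side was 96.5% identical over 1142 aligned bases to chr17:45569460-45570576, where the pseudogene MRPL45P2 is annotated, and the whole peak lay inside this alignment. How the aligner placed reads that fit both copies is not given in the sources used here. Of the 34 peaks it was the only one with a copy of at least 95% identity over most of its length. Without MRPL45 and MRPS31P5, the median percentiles were 43.6 for height and 39.5 for width, so the narrowness did not rest on these 2.

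Apexes lay close to start sites. The median distance from the apex to the nearest annotated start site of the labelled gene was 78.5 bp (quartiles 18.5 and 166, range 1 to 352), and in 19 of 34 peaks it was at most 100 bp. The apex lay upstream of that start site in 26 peaks and downstream in 8. In MRPS30 it lay 1 bp upstream and in MRPS27 2 bp downstream. The farthest were MRPS26, 352 bp upstream, and MRPS36, 310 bp downstream. Relative to the canonical transcript, 26 apexes were upstream of it, though some of these, as at MRPL24 and MRPL11, lay inside the longer gene record. In intron 1 lay 5 apexes (MRPS28, MRPS36, MRPL48, MRPL42 and MRPL58) and in an untranslated part of exon 1 lay 2 (MRPL20 and MRPL33). MRPS31P5 has no coding transcript. The label itself requires an apex near the gene, so this is partly fixed by how symbols were assigned. Measured to the start site of any gene, the same measure for all labelled peaks, the median distance was 52.5 bp against 75 bp in the other labelled peaks. It was at most 100 bp in 70.6% against 58.4%, and at most 500 bp in all 34 (100%) against 89.4%. Symbols and start sites come from different gene sets. In the set used for start sites, 165 symbols of the list are absent, while those of all 34 peaks occur. Its part in these distances was not tested.

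All but 1 of the 34 peaks covered a start site of the labelled gene. The exception was MRPL46 (chr15:89010828-89011440), whose peak ended short of its start site, with the apex 269 bp upstream. The same peak covered the start site of MRPS11, which runs the other way, and its apex lay 19 bp from the nearest annotated MRPS11 start site. This 1 peak of height 20 thus stood at a pair of mitochondrial ribosomal protein genes and carried only the MRPL46 symbol. The start sites of their canonical transcripts are 320 bp apart.

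**Figure D3:**
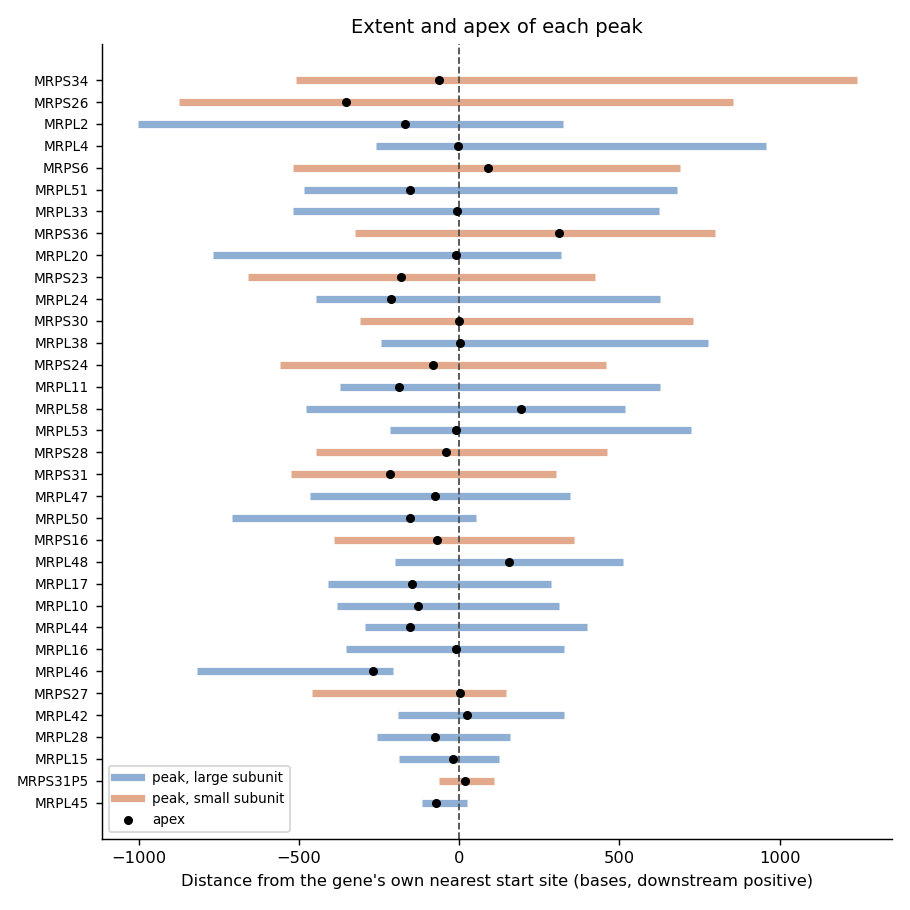
Extent (bars) and apex (black points) of each of the 34 peaks relative to the nearest start site of the labelled gene at 0, in bases, with downstream positive, ordered by width. All apexes lie within 352 bp of 0, and the bar of MRPL46 is the only one that does not reach 0.

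Counted by gene, 33 of 78 protein-coding MRPL and MRPS genes had a peak under their own symbol, which is 42.3% (Wilson 95% interval 32.0 to 53.4%, covering the counting of genes only), against 30% of all 20090 protein-coding genes. A peak covered the start site of 46 (59.0%), against 38.3% of all protein-coding genes. For 47 (60.3%) an apex lay within 1 kb of a start site, against 39.3%. Counting own labels only where the peak reached the list's median height gave 20.5%, against 17.5% of all protein-coding genes, a smaller difference.

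Both subunits contributed. Of 49 large subunit genes, 22 (44.9%) had their own label and 61.2% a covered start site. Of 29 small subunit genes, 11 (37.9%) had their own label and 55.2% a covered start site. Cytosolic ribosomal protein genes, the counterparts in the main ribosome, had their own label in 37 of 78 (47.4%) and a covered start site in 74.4%. Nuclear genes of oxidative phosphorylation had their own label in 49 of 97 (50.5%) and a covered start site in 66.0%. The mitochondrial ribosomal protein genes were thus above all protein-coding genes and below both of these groups.

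The peaks of these groups differed in shape too. The 37 cytosolic ribosomal protein peaks had a median height of 24, the same as the mitochondrial ones, a smaller median width of 757 bp and a highest peak of 61. Of these, 21.6% reached a height of 35, against 11.8% of the mitochondrial ribosomal protein peaks. The 51 oxidative phosphorylation peaks had a median height of 25 and a median width of 980 bp, and 33.3% reached 35. These differences were not tested.

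**Figure D4:**
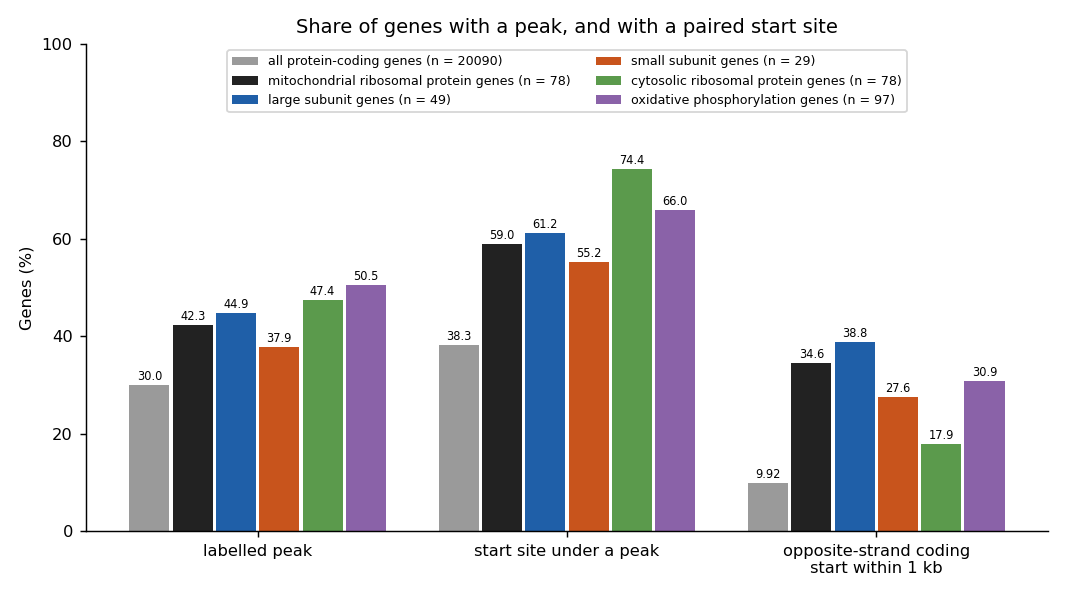
Share of genes (%) with a labelled peak, with a start site under a peak, and with a protein-coding start site on the opposite strand within 1 kb, for all protein-coding genes and 5 sets of genes. Opposite-strand pairs were measured between start sites of canonical transcripts. In the first and second groups of bars the mitochondrial ribosomal protein genes (black, 42.3% and 59.0%) lie between all protein-coding genes (grey) and the cytosolic ribosomal protein and oxidative phosphorylation genes, and in the last group they are at 34.6% against 9.92% of all protein-coding genes.

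A further 13 genes, 8 of the large and 5 of the small subunit, had their start site under a peak that carried the symbol of another gene, and these are not among the 34 except for the peak of MRPL46 at MRPS11. In 11 of the 13, the symbol was that of the nearest protein-coding gene on the opposite strand. In 9 the apex lay within 100 bp of the nearest annotated start site of the mitochondrial ribosomal protein gene. The 13 peaks had a median height of 27 (17 to 83) and a median width of 967 bp (613 to 2881). A height of 35 was reached by 4 of the 13 and by 25.5% of the other labelled peaks. The 13, apart from the MRPL46 peak, are themselves counted among these other labelled peaks. With MRPL36, described below, 14 of 78 genes (17.9%) had a covered start site and no own label, against 9.57% of all protein-coding genes. This share was 28.2% in cytosolic ribosomal protein genes and 16.5% in oxidative phosphorylation genes.

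The highest of these exceeded all of the 34. MRPL18, a large subunit protein with a bacterial counterpart, had its start site under the peak labelled TCP1, a subunit of the cytosolic chaperonin. This peak reached 83 over 2881 bp (chr6:160209727-160212607), with an apex 32 bp from the nearest annotated MRPL18 start site. MRPL34 lay under a peak of height 53 labelled ABHD8, MRPS18B under one of 52 labelled PPP1R10 and MRPL54 under one of 50 labelled APBA3. In the last 3 the apex was 234, 436 and 347 bp from the nearest annotated start site of the mitochondrial ribosomal protein gene.

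The other peaks of this kind were of ordinary height. MRPS12, a protein of the decoding centre, shared a peak of height 30 with SARS2, the mitochondrial seryl-tRNA synthetase, so that both genes at this promoter serve mitochondrial translation. MRPS18C lay under a peak of 29 labelled HELQ, and MRPL49 under one of 27 labelled FAU, which encodes a cytosolic ribosomal protein. MRPL32 lay under a peak of 22 labelled PSMA2, MRPL40 under one of 21 labelled HIRA, MRPS7 under one of 20 labelled GGA3, MRPL12 under one of 18 labelled SLC25A10 and MRPL30 under one of 17 labelled MITD1. At MRPL36 the start site lay under a peak with no symbol (chr5:1799118-1800352, height 26, width 1235 bp), with the apex 8 bp from the nearest annotated start site.

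Paired start sites were frequent in this gene family as a whole. Pairs were measured between start sites of canonical transcripts, whereas a covered start site could be any annotated one of the gene. ABHD8 started 2447 bp from MRPL34 by this measure, so MRPL34 counted as without a partner. A protein-coding start site on the opposite strand lay within 1 kb in 27 of 78 genes (34.6%), against 9.92% of all protein-coding genes. Within 300 bp it lay in 18 (23.1%) against 6.22%. This was not particular to these genes, since oxidative phosphorylation genes had such a partner within 1 kb in 30.9% and within 300 bp in 24.7%. Of the genes with such a partner, 66.7% had a covered start site, against 70.3% of all protein-coding genes with a partner. Of the 51 without a partner, 54.9% had a covered start site, against 34.7% of all protein-coding genes without one. By subunit, among genes with a partner, 7 of 8 small subunit genes (87.5%) and 11 of 19 large subunit genes (57.9%) had a covered start site. Among genes without a partner the shares were 42.9% for the small and 63.3% for the large subunit. These shares rest on few genes and were not tested.

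Among the 33 genes with their own label, 8 (24.2%) had a protein-coding partner within 1 kb, against 10.9% of all labelled protein-coding genes. These were MRPL10 with LRRC46, MRPL2 with KLC4, MRPL46 with MRPS11, MRPL47 with NDUFB5, MRPL50 with ZNF189, MRPL51 with NCAPD2, MRPS27 with PTCD2 and MRPS34 with EME2. With partners of any gene type the share was 30.3%, close to 30.2% of all labelled protein-coding genes.

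Neither a label nor a covered start site was found for 31 genes, 29 of which had no peak anywhere over the gene. Among them were MRPL3 and MRPL19, proteins with bacterial counterparts, and MRPS2, MRPS5 and MRPS9 of the small subunit. The nearest peak lay a median of 38416 bp from a start site of these 31 genes. It was 3179 bp away at MRPL35 and 687567 bp away at MRPL19, within 10 kb in 3 and beyond 100 kb in 6. A protein-coding partner within 1 kb was present at 8 of the 31, among them MRPL43 with TWNK, the mitochondrial DNA helicase. Because the list holds only peaks that passed the authors' threshold, a gene without a peak is listed without one, which gives no upper limit for its signal.

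Genes that act beside the mitochondrial ribosome were represented at similar or higher shares. An own label was found for 37 of 66 genes (56.1%) listed for mitochondrial translation and transcription outside the MRPL and MRPS names. That share was 30% in all protein-coding genes, 47.4% in cytosolic ribosomal protein genes and 50.5% in oxidative phosphorylation genes. The 37 genes had a median height of 21 and a median width of 874 bp. The tRNA synthetases listed had their own label in 13 of 20, with heights from 17 to 47, the highest at CARS2. The 20 include GARS1, KARS1 and QARS1, which are not specific to mitochondria, and KARS1 and QARS1 are among the 13. Translation factors had their own label in 8 of 16, with the highest peak, 49, at RMND1. Ribosome assembly factors had it in 10 of 20, with the highest peak, 51, at TFB1M, which methylates the small subunit's RNA. Mitochondrial transcription genes had it in 3 of 5, namely TFAM, POLRMT and TFB2M at 19, 30 and 31. Of 5 ribosomal proteins under other symbols, AURKAIP1 stood at 48, CHCHD1 at 28 and GADD45GIP1 at 17, while the start sites of DAP3 and PTCD3 were covered by peaks labelled YY1AP1, of height 16, and POLR1A, of height 23.

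Motifs were counted as exact letters on both strands in the 401 bp around each apex and, as a control, in windows of the same length 2 kb upstream. The sequences shown above are examples. The ETS-type motif CCGGAAG occurred in 13 of 34 peaks (38.2%), in 21.7% of the other labelled peaks, in 0 of 34 control windows and in 1.47% of the others' control windows. The YY1 core AAGATGG occurred in 10 (29.4%) against 9.04%, and in the control windows in 17.6% against 7.81%, so that part of this difference was also present away from the peaks. The longer YY1 motif AAGATGGCG, which contains the core, occurred in 4 (11.8%) against 4.08%, with 0 and 0.266% in the control windows. The NRF1-type motif GCATGCGC occurred in 3 (8.82%) against 6.17%. At least 1 of the ETS-type motif, the NRF1-type motif and the YY1 core was present in 22 of 34 peaks (64.7%) and in 32.6% of the other labelled peaks, and 4 peaks held 2 of them.

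Other motifs were as frequent as elsewhere or less so. The SP/KLF-type motif GGGCGG occurred in 24 of 34 (70.6%) against 76.2%, and CCAAT, the NF-Y box, in 44.1% of both. The half-site AGGTCA, which retinoic acid receptors bind, occurred in 3 (8.82%) against 16.6%, and GGGTCA in 6 (17.6%) against 20.2%. In the control windows AGGTCA was more frequent, at 44.1% against 32.4%. The E-box CACGTG occurred in 2 (5.88%) against 12.6%. Base composition moved in the same direction as some of these values, with a median GC content of 61.3% against 64.3% and a median of 31 against 33 CpG, and its part in the motif shares was not tested.

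Heights with and without a match were close for 2 of the 3 motifs. The 13 peaks with the ETS-type motif had a median height of 23 and the 21 without it 24. The 10 with the YY1 core had a median of 24.5 and the 24 without it 23.5. Only 3 peaks held the NRF1-type motif, with a median of 29 against 24 in the 31 without it. None of these differences was tested. MRPS34, the widest and among the lowest, held 3 ETS-type matches, and MRPL20, at a height of 33, held 2 together with a YY1 core 2 bp from the apex. At MRPL38 the ETS-type match lay on the apex itself. Of the 10 YY1 core matches, 8 were on the strand of the gene and 5 downstream of its start site nearest to the apex. In 4 of the 10 (40.0%) the ATG of the match was an annotated start codon, against 30.2% of 699 matches in the other labelled peaks, so a match in this position can also be the beginning of the coding sequence.

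**Figure D5:**
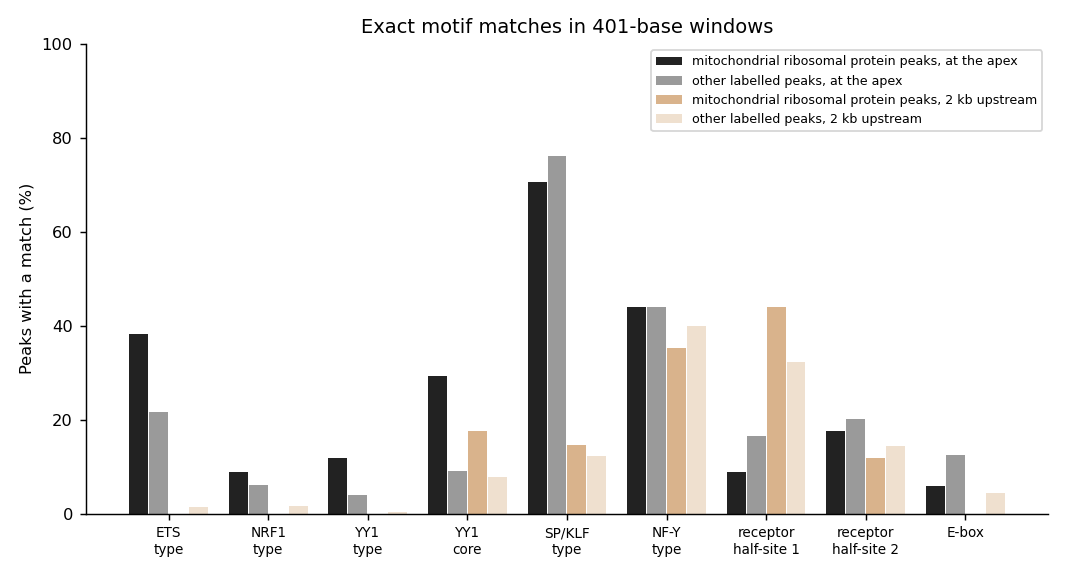
Share of peaks (%) with an exact match to each motif in the 401 bp around the apex and in control windows 2 kb upstream, for the 34 mitochondrial ribosomal protein peaks and the 7135 other labelled peaks. The receptor half-sites 1 and 2 begin with A and G. The black bars stand above the dark grey ones for the ETS-type (38.2% against 21.7%) and YY1 motifs and below them for the first half-site and the E-box.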

How the data were processed

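Per the labels and the study's methods, the authors used Trimmomatic for trimming, Bowtie2 for alignment to hg19, Samtools and Bedtools to remove duplicates and blacklisted reads, and SEACR ("norm union") for peaks over a paired control. Only peaks reproducible between 2 replicates (IDR below 0.05) were kept. Versions are not given in the sources used here. The deposited values are a signal and a score per peak, with no stated normalization, and a width and positions in bases. The column named summit was read as the total signal and the score as the largest signal (height). This reading rests on the values, since in all 15412 peaks the former was below the score times the width. It is not stated whether the signal is of pooled reads. A gene symbol marks an apex inside a promoter of the UCSC hg19 gene set.

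Start sites, exons and pairs were computed from GENCODE release 44 on GRCh37 (chromosomes 1 to 22 and X), the same build. Of 6546 symbols, 6381 occur in it. Sequences were read from GRCh37 with pysam 0.24.0, and copies were searched with blastn 2.17.0. Python 3.11.15, pandas 2.3.3, SciPy 1.17.1 and matplotlib 3.10.9 were used. The functions were tested on simulated data. Every member could be named. The members and gene lists were chosen with earlier results of these data known. Depth is unknown.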

Additional observations from a re-analysis of the deposited data

How the results depend on the processing

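No paired analysis was possible because each peak has a single value and the replicates have none of their own. Leaving out a replicate could likewise not be done. Of 41 alternative values, 31 stayed within the 95% interval of the reported value (order statistics for medians, Wilson for shares), 9 lay outside it and 1 crossed the middle. The 41 include the control windows 2 kb upstream, which are a comparison and not another way of processing. Those of the YY1 core (17.6%), CCAAT (35.3%) and GGGTCA (11.8%) are among the 31. The tally therefore does not measure how stable the results are. The median height percentile was 41.7 and turned to 51.6 within 10 classes of width. Otherwise it was 30.2 (total signal) to 43.6 (without the 2 narrowest members, chosen after seeing the data). The median width percentile of 36.0 ranged from 26.9 (within classes of height) to 39.5. The share of genes with their own label, 42.3%, was 60.3% by an apex within 1 kb, 59.0% by a covered start site and 20.5% by own labels of peaks of at least median height, since these count different sets of peaks. In control windows 2 kb upstream, the ETS-type, NRF1-type and YY1-type motifs and the E-box each gave 0.0%, the SP/KLF-type motif 14.7% and AGGTCA 44.1%. The median apex distance of 78.5 bp became 150.0 bp from the 5′ end of the gene record and 56.5 bp from the centre of the peak.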

Other observations

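Some peaks over these genes lay away from their promoters and carried no symbol. MRPS27 had a peak of height 32 and width 955 bp in intron 2 (chr5:71603703-71604657), higher than its promoter peak of 19. MRPL37 and MRPL23 had no peak at a start site, but a peak without a symbol lay within the annotated extent of each, of height 33 (chr1:54685595-54686568) and 24 (chr11:1999972-2000419), downstream of the canonical transcript. MRPL33, whose gene record includes a long transcript, had 6 peaks over it, of which only the one at the promoter carried its symbol.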
